A study of Mus musculus with 7 samples.

Results

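Small nucleolar RNAs (snoRNAs) were examined in vascular fragments of the mouse brain 4 h after an injection into the cerebral ventricles. Their members were taken from the microarray's annotation: every probe set with 1 gene symbol that starts with Snord (box C/D class) or Snora (box H/ACA class) followed by a digit, with the probe set of highest mean kept where a gene had more than 1. This gave 73 genes, 47 Snord and 26 Snora, of 22180 genes with a symbol of their own. Another 43 snoRNA probe sets carried several symbols and were left out, since no gene can be named from them. The rule itself uses names and signal level and no difference between groups, but it was written with earlier results of these data known.

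The mice were C57BL/6N females aged 12 weeks with no engineered allele named in the labels. The treated group had received PDGF-CC, a platelet-derived growth factor that signals through the receptor PDGFR-alpha, and the control group phosphate-buffered saline (PBS). The dose is not given in the sources used here. PDGF-CC was measured on 4 arrays and PBS on 3, with 10 ng of total RNA amplified for each. Nothing in the labels says that the samples came from separate mice, and p-values therefore reflect only how far these samples vary, part of which can be technical. Vascular fragments are pieces of small vessels with the cells that adhere to them, and in such bulk samples fewer cells of a type and less RNA per cell cannot be told apart.

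Small nucleolar RNAs are short non-coding RNAs that base-pair with other RNAs and direct their chemical modification. Box C/D RNAs bind the proteins Fbl, Nop56, Nop58 and Snu13 and guide methylation of ribose, whereas box H/ACA RNAs bind Dkc1, Nhp2, Nop10 and Gar1 and guide the conversion of uridine to pseudouridine. Most targets lie in ribosomal RNA, and a few members (such as U3, U8, U17 and U22) are instead needed for cutting of the ribosomal RNA precursor. In mammals nearly all of them are released from introns of host genes, many of which encode ribosomal or nucleolar proteins and many of which have no other known product. U8, the Snord118 RNA, has a known tie to brain vessels, since inherited variants of its human gene cause a disease of small cerebral vessels with white matter damage and calcification.

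RefSeq listed all 73 members, with lengths of 48 to 221 bases for Snord (median 68) and 56 to 205 for Snora (median 118.5). By position, 70 lay inside another gene and 3 did not (Snord118, Snord13 and Snord89). Ribosomal protein genes held 19, other protein-coding genes 32 and long non-coding RNA genes 19. A snoRNA and the unspliced intron around it share their sequence, so signal of the mature RNA and of unspliced host RNA cannot be told apart on this array.

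The sequences of the snoRNAs themselves were not used here, but the start sites of their host genes were. Host genes are known for transcripts that open with a C followed by a run of pyrimidines, the terminal oligopyrimidine (TOP) motif that couples their translation to growth signals. The 4 start sites shown, from RefSeq (GRCm38.p6), belong to hosts of members that are described below. Each is 60 bases long with 45 before the annotated start, and capitals mark a C followed by at least 4 further C or T bases, beginning no more than 2 bases from the start.
Snhg12: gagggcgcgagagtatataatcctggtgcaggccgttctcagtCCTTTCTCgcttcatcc
Snhg3: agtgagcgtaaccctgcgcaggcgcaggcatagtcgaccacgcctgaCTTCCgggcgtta
Rpl13a: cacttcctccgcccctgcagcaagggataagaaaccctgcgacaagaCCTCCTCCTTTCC
Ncl: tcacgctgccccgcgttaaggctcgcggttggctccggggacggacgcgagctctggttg
These windows lie at chr4:132308633-132308692 (plus strand), chr4:132353672-132353731 (minus), chr7:45128731-45128790 (minus) and chr1:86359441-86359500 (minus), and the run of Rpl13a goes on past the last base shown. On the gene's own strand 11 of 48 host genes with a window held such a run (22.9%), against 10.6% of 26977 other genes and 8.96% of all 32851 windows. Among hosts that are not ribosomal protein genes the share was 26.3% (10 of 38). Of the ribosomal protein hosts with a window only Rpl13a held a run. Rpl23, Rpl37, Rpl39, Rpl4, Rps12, Rps2, Rps3, Rps3a1 and Rpsa did not. Whether the annotated starts are the ones in use was not tested. A missing run says only that these letters are not near the annotated start, as in Ncl, and a match is a description of letters.

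No snoRNA passed the adjusted threshold. Members with a mean log2 value above 4.145, the 30th percentile of probe sets with a symbol, were tested with limma on all 17734 such probe sets, and 57 of the 73 qualified (36 Snord and 21 Snora). At a Benjamini-Hochberg adjusted p under 0.05, none of the 57 was called higher after PDGF-CC and none lower, and the same was true of 0% of all tested probe sets in either direction. At an unadjusted p under 0.05, 2 Snord and 0 Snora were higher, beside 2.63% of all tested probe sets. By that rule 1 Snord and 1 Snora were lower, beside 3.41%. A stricter rule, an unadjusted p under 0.01 together with a 1.5-fold difference or more, held for 1 Snord upwards (0.0677% of all) and 1 Snord downwards (0.197%).

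The 16 members under the filter (11 Snord and 5 Snora) had differences from -0.35 to 0.48 (log2, PDGF-CC minus PBS), and in none did the groups separate. The largest of these was that of Snord37, which lies in the elongation factor gene Eef2. Closest to the filter stood Snord110 (mean 4.137, difference -0.35, not tested) just below and Snord16a (mean 4.320, difference -0.08) just above.

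**Figure D1:**
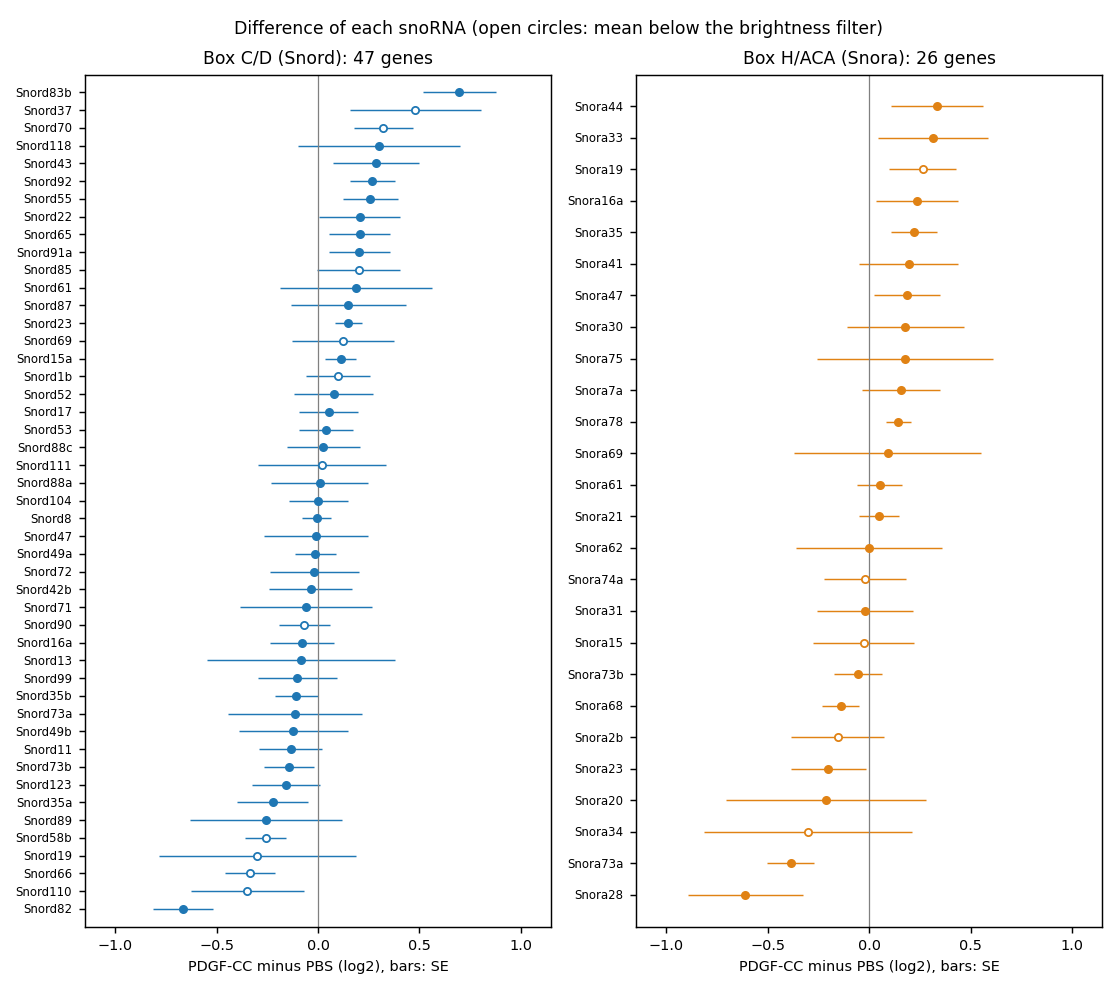
Difference between PDGF-CC (4 arrays) and PBS (3 arrays) for each of 47 Snord genes (left) and 26 Snora genes (right), on the log2 scale, with the standard error as a bar. Filled circles are the 57 tested members and open circles the 16 under the filter. Snord83b (0.70) and Snord82 (-0.67) stand at the ends of the Snord panel, and Snora28 (-0.61) and Snora73a (-0.39) at the low end of the Snora panel.

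As classes, box C/D and box H/ACA RNAs were centred near 0. Over the 47 Snord genes the median difference was 0.0013 (quartiles -0.11 and 0.17), with 24 above 0 and 23 below. Over the 26 Snora genes it was 0.0496 (quartiles -0.12 and 0.18), with 14 above 0 and 12 below. All 22180 genes had a median of 0.0109, and 53.9% of them lay above 0. Among the 57 tested members 18 of 36 Snord and 13 of 21 Snora lay above 0, beside 48.4% of all tested probe sets.

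Box C/D minus box H/ACA, the gap between the medians was -0.0483. A gap can also be taken in each array, between the class medians of the genes' deviations from their own means. That gap had an SD of 0.0443 between arrays of a group, which is a spread of single arrays and not of group differences. The gap of -0.0483 depended on single arrays: without PBS array 2 it was 0.011, and without PDGF-CC array 4 it was -0.0963. With the mean over genes in place of the median, the 2 classes differed by only -5e-04, and over tested members alone by -0.0938. The class medians moved as well. The Snora median was 0.1382 without PDGF-CC array 4, and the Snord median was 0.1002 without PBS array 1.

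Single snoRNAs spread more widely than genes in general, and other short RNAs on the array did too. The median absolute difference was 0.136 for Snord and 0.177 for Snora, against 0.0811 over all genes. It was 0.1378 over 472 genes with a Mir symbol, from a list of microRNAs and a few of their host genes. For the 5 small Cajal body RNAs (Scarna genes) it was 0.1482, and for the 4 Rnu genes 0.1366. The median SD between arrays of a group was larger in the same way, 0.269 for tested Snord and 0.309 for tested Snora against 0.128 for all tested probe sets. For the 181 tested genes with a Mir symbol this SD was 0.232. Without filter or test, 2 of 47 Snord and 1 of 26 Snora differed by at least 1.5-fold, and 0.762% of all genes did.

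In Snord83b, the highest member, the 4 PDGF-CC arrays read 7.04, 6.62, 6.45 and 6.55, and the 3 PBS arrays 6.27, 5.97 and 5.67. Every PDGF-CC array stood above every PBS array. The difference was 0.70 ± 0.18 (SE, n = 4 and 3), or 1.62-fold, with an adjusted p of 0.769 in limma (unadjusted 0.00617). Leaving out each array in turn gave 0.55 to 0.85. It was the only tested member with all PDGF-CC arrays above all PBS arrays, which 1.8% of tested probe sets showed.

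Snord83b lies inside Rpl3, the gene of a protein of the large ribosomal subunit, together with Snord43. Snord43 read 6.10, 6.02, 5.78 and 5.82 after PDGF-CC and 6.14, 5.59 and 5.20 after PBS. PBS array 1 was the highest of all, so the groups overlapped, and the difference was 0.29 ± 0.21 (adjusted p = 0.774, limma). Without PBS array 1 it was 0.54, and without PBS array 3 it was 0.06. The probe set of Rpl3 read 9.42, 9.60, 9.05 and 8.93 against 9.68, 8.71 and 8.72, a difference of 0.21 ± 0.28. Its number falls between those of the probe sets of Snord83b and Snord43. Whether it measures the messenger RNA of Rpl3 was not tested. In Rpl3, too, PBS array 1 was the highest. With limma's array weights the difference of Rpl3 was -0.02. No value of Snord83a, the near relative of Snord83b, was analysed here.

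Snord82, the lowest member, read 6.19, 6.40, 6.03 and 6.33 after PDGF-CC and 6.65, 7.21 and 6.86 after PBS. All PDGF-CC arrays were below all PBS arrays. The difference was -0.67 ± 0.15, a ratio of 0.629, with an adjusted p of 0.769 in limma (unadjusted 0.00268), and it ran from -0.80 to -0.52 as arrays were left out in turn. Among tested probe sets 2.5% separated in this direction, and among the members 1 of 36 Snord and 1 of 21 Snora did.

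Its host is Ncl, which encodes nucleolin, an abundant nucleolar protein that acts in ribosomal RNA synthesis. Ncl read 10.09, 10.18, 10.59 and 10.32 against 10.40, 10.30 and 10.30, and the groups overlapped with a difference of -0.04 ± 0.12. The Ncl difference turned to 0.02 with quantile normalization repeated. The H/ACA member of the same gene, Snora75, read 5.99, 5.29, 5.67 and 4.35 against 5.86, 4.84 and 4.74, a difference of 0.18 ± 0.44. Both ends of its range fell within the PDGF-CC group. Snord82 thus separated the groups where neither its host nor its neighbour did, though a test of the difference between them was not run.

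Snora73a, one of a pair of U17 RNAs that act in processing towards the small ribosomal subunit, read 4.63, 4.81, 4.72 and 4.45 after PDGF-CC and 4.82, 5.17 and 5.13 after PBS. The groups did not overlap, although PDGF-CC array 2 and PBS array 1 lay next to each other. The difference was -0.39 ± 0.12, with an adjusted p of 0.769 in limma (unadjusted 0.0125). Its partner Snora73b read 5.30, 5.64, 5.35 and 5.35 against 5.35, 5.69 and 5.35 and differed by -0.05 ± 0.12. PDGF-CC array 2 and PBS array 2 were far above the rest for Snora73b, and without PBS array 2 its difference was 0.06. Both lie inside Snhg3, a snoRNA host gene without a known protein, which read 7.03, 7.11, 7.07 and 6.96 against 7.28, 7.17 and 7.11 (difference -0.15 ± 0.064, unadjusted p = 0.0534, limma).

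**Figure D2:**
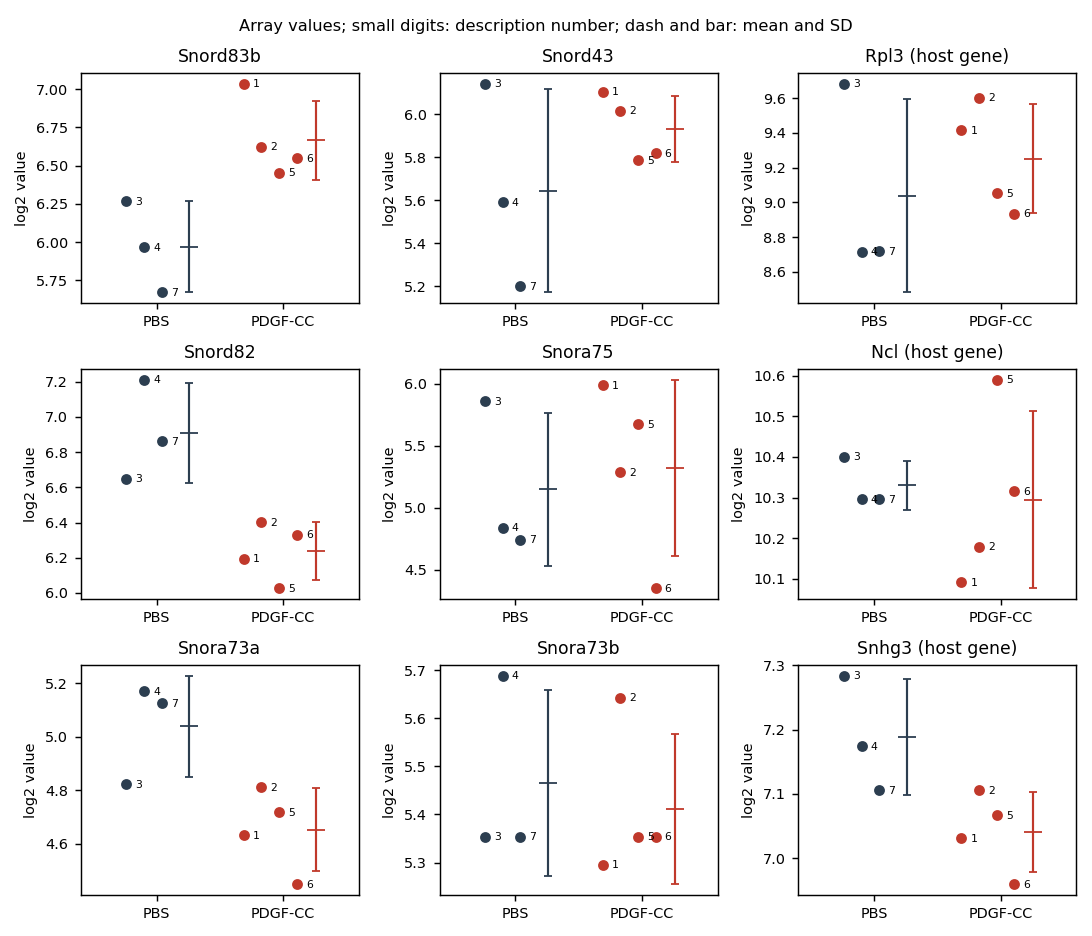
Log2 values of Snord83b, Snord82 and Snora73a (left), of another snoRNA inside the same gene (middle) and of the host gene (right), in 3 PBS and 4 PDGF-CC arrays. Each point is 1 array, the small digit is the number in its sample description, and the dash and bar are the group's mean and SD. The left panels show no overlap between groups, and the other panels overlap or, for Snhg3, share the value 7.11.

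The other members that act in precursor cutting, and Snord13 beside them, did not differ beyond the spread of their arrays. Snord118 (U8), needed for RNAs of the large subunit, read 7.77, 7.03, 6.13 and 6.51 after PDGF-CC and 7.08, 6.37 and 6.23 after PBS. The PDGF-CC arrays spanned the whole PBS range, and the difference was 0.30 ± 0.40. Without PDGF-CC array 1 it was -0.0036. Snord13 (U13), which acts on the RNA of the small subunit, read 6.37, 7.46, 5.40 and 6.48 against 6.22, 7.07 and 6.26, with PDGF-CC arrays at both extremes and a difference of -0.09 ± 0.46. Snord22 (U22), inside the host gene Snhg1, read 6.07, 6.00, 5.81 and 5.71 against 6.15, 5.29 and 5.63, a difference of 0.21 ± 0.20. No member carries the symbol Snord3a or a Snord14 symbol. The U3 gene Rnu3a was read only among the Rnu genes described at the end.

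In Snora28, the lowest of the box H/ACA class, the arrays read 6.15, 5.69, 6.48 and 5.48 against 6.82, 6.07 and 6.79. PBS array 2 lay within the PDGF-CC range. The difference was -0.61 ± 0.28 (0.655-fold, unadjusted p = 0.0688, limma), while its host Eif5, a translation initiation factor, differed by -0.02 ± 0.12, with a positive value under 6 of 17 alternatives. At the other end, Snord92 was the second Snord with an unadjusted p under 0.05 on the higher side. It read 4.55, 4.29, 4.29 and 4.66 against 4.29, 4.12 and 4.13, a difference of 0.27 ± 0.11, and PDGF-CC array 3 and PBS array 1 held the same value. Snord53, which shares with it the host Wdr43 (a factor of early small-subunit assembly), differed by 0.04 ± 0.13.

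Of the remaining Snord genes named by p or size, Snord55 differed by 0.26 ± 0.14, Snord65 by 0.21 ± 0.15, Snord23 (in Nop53, a factor of large-subunit maturation) by 0.15 ± 0.067 and Snord15a (in Rps3) by 0.11 ± 0.078. None of the 4 separated the groups. On the lower side Snord89 differed by -0.26 ± 0.38, Snord35a by -0.22 ± 0.17 and Snord123 by -0.16 ± 0.17. Snord35a lies in Rpl13a, whose start is shown above and whose snoRNAs are known from work on oxidative stress caused by lipids. It read 4.50, 4.47, 4.64 and 4.51 against 4.43, 4.62 and 5.21. PBS array 3 stood above the other 6 arrays, and without that array the difference was 0.0053.

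Among Snora genes, 3 of the higher ones were Snora44 (0.33 ± 0.23), Snora33 (0.32 ± 0.27) and Snora16a (0.24 ± 0.20). Snora33, inside the ribosomal protein gene Rps12, read 9.28, 9.48, 8.84 and 8.35 against 8.90, 8.66 and 8.45, and PDGF-CC arrays stood at both ends. A second probe set of Snora33 differed by only 0.04 ± 0.18. Snora78 differed by 0.14 ± 0.063 (unadjusted p = 0.0573, limma), and PBS array 2 held the same value as PDGF-CC arrays 1 and 4. On the lower side Snora20 differed by -0.21 ± 0.49, Snora23 by -0.20 ± 0.18 and Snora68 by -0.14 ± 0.091.

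For the members with the highest signals, no difference passed the threshold either. Among Snord these were Snord35b (-0.11 ± 0.10), Snord104 (0.0013 ± 0.14), Snord8 (-0.0074 ± 0.072) and Snord23 as above. For Snord8 the arrays read 8.39, 8.54, 8.34 and 8.31 against 8.47, 8.39 and 8.34. Among Snora these were Snora33 and Snora23 as above, Snora21 (0.05 ± 0.099) and Snora31 (-0.02 ± 0.24). Snora31 read 7.98, 7.94, 7.27 and 7.06 after PDGF-CC but 7.59, 7.55 and 7.61 after PBS, so its SD was 0.469 in one group and 0.0272 in the other.

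Mean levels of both classes split the arrays by the numbers in their sample descriptions and not by treatment. PDGF-CC arrays 1 to 4 carry the numbers 1, 2, 5 and 6, and PBS arrays 1 to 3 the numbers 3, 4 and 7. The labels do not say what these numbers mean, and the cut between 4 and 5 was set here. The Snord mean was 5.57, 5.68, 5.65 and 5.52 in the arrays numbered 1 to 4, and 5.45, 5.48 and 5.41 in those numbered 5 to 7. The Snora mean was 5.705, 5.76, 5.69 and 5.54 against 5.51, 5.39 and 5.49. In these means over all members of a class, every array of numbers 1 to 4 was above every array of numbers 5 to 7. PDGF-CC and PBS arrays overlapped in both classes. Over the 21 tested Snora genes alone the split did not hold. There the array numbered 4 (5.94) lay below those numbered 5 (6.00) and 7 (5.98), whereas for tested Snord genes the split held.

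Gene by gene, 33 of 47 Snord and 21 of 26 Snora had a higher mean in arrays 1 to 4 than in arrays 5 to 7, beside 48.5% of all genes. All members share these arrays, so the counts describe the same shift as the class means. Each part holds arrays of both treatments, but numbers 5 to 7 hold only 1 PBS array, so differences there rest on that array and have no spread for PBS. Within numbers 1 to 4 the median difference between PDGF-CC and PBS was 0.0447 for Snord and 0.1109 for Snora, and within 5 to 7 it was 0.0652 and -0.0271. Snord83b differed by 0.71 and 0.83 in the 2 parts, Snord82 by -0.63 and -0.68, and Snora73a by -0.28 and -0.54. In these members the groups do not overlap, so the same sign in both parts was fixed in advance. Among members whose groups overlap, some kept their sign and others did not. Snord118 differed by 0.67 and 0.09, Snora44 by 0.63 and 0.11 and Snora33 by 0.60 and 0.14. Signs turned, for example, in Snora31 (0.39 and -0.44), Snora69 (0.69 and -0.77) and Snord13 (0.27 and -0.32).

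**Figure D3:**
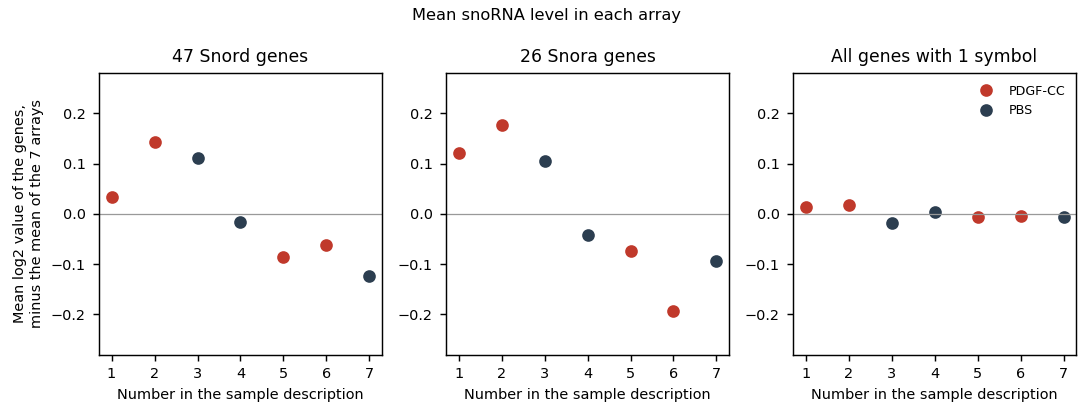
Mean log2 value of 47 Snord genes, 26 Snora genes and all 22180 genes in each array, minus the mean of the 7 arrays, plotted by the number in the sample description. Red points are PDGF-CC and dark points PBS arrays. The snoRNA means of arrays 1 to 4 lie above those of arrays 5 to 7, and the means of all genes stay between 5.55 and 5.59 before centring.

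Host genes were set beside the snoRNAs they contain, each by its probe set of highest mean, whose position was not checked. For Rps3a1, Rpl23a, Rpsa, Rpl4 and Rpl39, among others, that probe set is numbered far from those of their snoRNAs. Whether such probe sets read the gene around the snoRNA was not tested. Of 62 hosts 47 were measured, and 55 snoRNAs had a single measured host. In 36 of these pairs snoRNA and host differed in the same direction and in 19 in opposite directions. The 47 hosts had a median difference of -0.0379, with 15 above 0, and in none did the groups separate. A renewed quantile normalization over the tested probe sets brought that median to -0.0038. By kind of host, the 19 snoRNAs in ribosomal protein genes had a median of -9e-04, a range from -0.26 to 0.70 and 9 above 0. The 32 in other protein-coding genes had a median of 0.0319, a range from -0.67 to 0.48 and 19 above 0. The 19 in long non-coding RNA genes had a median of -0.0074, a range from -0.39 to 0.33 and 9 above 0. All 3 kinds thus had members on both sides of 0.

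Snhg12, a host gene without a known protein, held 4 members. Its own difference was 0.04 ± 0.14, and those of Snora44, Snora16a, Snora61 and Snord99 were 0.33, 0.24, 0.05 and -0.10. In Snora44, the arrays read 7.57, 7.75, 7.06 and 6.83 against 7.17, 6.90 and 6.84. Its 2 highest arrays were those numbered 1 and 2, and the groups overlapped. Over 18 pairs of snoRNAs that share a host, the median Pearson correlation of deviations from the group means over the 7 arrays was 0.552, against 0.139 over all 2628 pairs of members. Pairs share the same arrays and, in part, a host, so these medians only describe the arrays.

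Other hosts held several members as well, and 10 of the 18 pairs differed in the same direction. In Rps3a1, a ribosomal protein gene, Snord73a differed by -0.115 and Snord73b by -0.14. The probe set used for Rps3a1, whose place in that gene was not tested, differed by -0.25 ± 0.12. In the long non-coding gene 2410006H16Rik (-0.09 ± 0.057), Snord49a differed by -0.01, Snord49b by -0.12 and Snord65 by 0.21. In Nop58, whose protein is part of the box C/D particle itself, Snord11 differed by -0.14 and Snord70, under the filter, by 0.32. In Gnl3, a nucleolar protein gene, Snord19 differed by -0.30 and Snord69 by 0.12, both under the filter. In 3 of these 4 genes the members lay on both sides of 0.

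Snora35 had the host with the largest difference. That host is Htr2c, a serotonin receptor gene with high expression in choroid plexus, and it read 5.37, 5.53, 5.35 and 6.28 after PDGF-CC and 6.09, 6.78 and 6.27 after PBS (difference -0.75 ± 0.27, unadjusted p = 0.0257, limma). Snora35 read 4.41, 4.82, 4.41 and 4.56 against 4.41, 4.21 and 4.37, a difference of 0.22 ± 0.11. Markers of choroid plexus were lower after PDGF-CC for 7 of 7 genes, with list means of 6.49 to 7.34 against 7.51 to 7.85, and their part in these values was not tested.

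**Figure D4:**
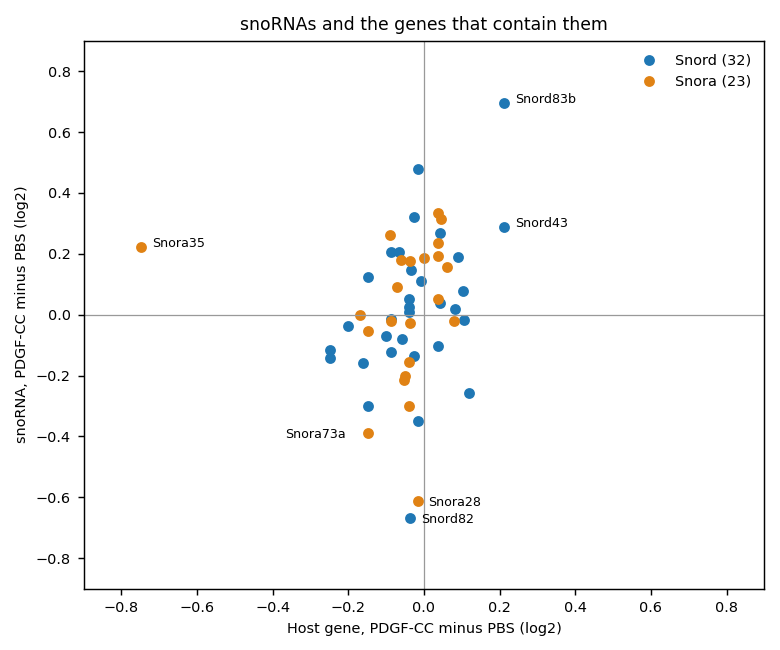
Difference between PDGF-CC and PBS on the log2 scale for 55 snoRNAs (vertical axis) against that of the gene that contains them (horizontal axis), for 32 Snord and 23 Snora. Each point is 1 snoRNA, and each host is shown by its probe set of highest mean, whose position was not checked. The other hosts lie between -0.25 and 0.12, Rpl3 stands at 0.21 with both of its snoRNAs above 0, and Htr2c stands alone at -0.75.

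Genes for the proteins of snoRNA particles showed small differences. Of 30 measured genes for core proteins, assembly, processing and nucleolar factors, 12 lay above 0 and 18 below, with a median of -0.0192. With quantile normalization repeated the median was 0.0038. At an unadjusted p under 0.05 none was higher (2.63% of all tested probe sets) and 1 of 30 was lower (3.41%), so these counts stand near the background. The lower gene was Nufip1, an assembly factor of box C/D particles. It read 6.65, 6.66, 6.60 and 6.54 against 6.72, 6.83 and 6.85, all PDGF-CC arrays below all PBS arrays (2.5% of tested probe sets), a difference of -0.19 ± 0.057 (unadjusted p = 0.013, limma).

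Of the box C/D core, Nop56 differed by -0.01 ± 0.097, Nop58 by -0.03 ± 0.13 and Snu13 by -0.12 ± 0.071. Of the box H/ACA core, Dkc1, the pseudouridine synthase, differed by 0.02 ± 0.084, Nhp2 by 0.02 ± 0.078, Nop10 by -0.03 ± 0.046 and Gar1 by -0.09 ± 0.067. Snu13, Nop10 and Gar1 kept a negative sign under every alternative run, and the sign of the other 4 turned under at least 1. Fbl was not analysed here.

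Arrays correlated at 0.987 to 0.994 over all probe sets. Endothelial markers were present in every array, with a mean of 10.47 to 10.67 over 8 genes. Markers of other cell types differed unevenly between the groups, and none passed the adjusted threshold. Microglial markers had list means of 9.75 to 9.82 after PDGF-CC and 9.33 to 9.70 after PBS, with 4 of 5 genes higher. Pericyte markers were lower for 7 of 7 genes, but their list means overlapped (9.26 to 9.72 against 9.58 to 9.80). Smooth muscle markers were higher for 4 of 4 genes, oligodendrocyte markers for 4 of 4, neuronal markers for 5 of 6 and astrocyte markers for 2 of 5. The part of these differences in the snoRNA values was not tested.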

How the data were processed

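Vascular fragments of 4 PDGF-CC and 3 PBS samples were measured on 1 array each. The deposited values are log2 intensities, as their range (1.538 to 12.994) shows. The submitters' processing notes name Affymetrix Expression Console, RMA and limma without versions. RMA equalises the distribution of probe signals before probe sets are summarised, which takes out most of any overall difference; values per probe set need not share 1 distribution exactly. Build and settings: not given in the sources used here.

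Of 33793 probe sets, 23521 had 1 gene symbol, 1814 several and 8458 none in the platform annotation. The 17734 probe sets with a symbol whose mean exceeded the 30th percentile of such probe sets were tested with limma 3.58.1 (lmFit, eBayes; R 4.3.3), 2-sided, without covariates, adjusted by Benjamini-Hochberg at 0.05. Members of either class were summarised without a test. The fit was tested on simulated data. Arrays have no read depth, and their number limits precision.

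Host genes were those whose RefSeq span (GRCm38.p6) contains a member. Strand was not given for them, so the planned same-strand rule could not be applied. Named members were, per class, up to 8 with the smallest p, the 4 highest, 4 lowest and 4 of highest signal. Members that act in precursor cutting, Snord13, Snord83b, those at the filter, hosts and core proteins were named as well. Members, lists and rules were chosen with earlier results of these data known. Arrays were not paired by title number in the main test. Alternatives changed the filter, the normalization, array weights, covariates or the arrays used. Figures used matplotlib 3.10.9.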

Additional observations from a re-analysis of the deposited data

Results flagged for a closer look

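In the group of 4 PDGF-CC arrays 62 items were examined, among them snoRNAs, hosts and core protein genes. In 7, all snoRNAs or core protein genes, an array lay farther from the others than Dixon's limit. That limit is for the gap as a share of the group's range in groups of 4, and chance alone flags about 1 in 20. Array 1 stood apart for Snord123 (0.848), Snord55 (0.896) and Nop10 (1). Array 2 stood apart for Snora73b (0.832) and Dkc1 (1), array 3 for Snord35b (0.857) and array 4 for Nop58 (0.907). In Nop10 and Dkc1 the other 3 arrays held exactly the same value, which makes the share 1 whatever the distance.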

How the results depend on the processing

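No snoRNA passed the adjusted threshold under any of the 17 alternatives to the test. Adjusted p in limma ranged over them from 0.35 to 0.846 for Snord83b and 0.412 to 0.846 for Snord82. For Snora73a it ranged from 0.527 to 0.846 over 16 alternatives, without the filter at percentile 50. At an unadjusted p under 0.05, 2 members were higher, beside 2.63% of all tested probe sets, but 1 with arrays centred on their median (2.4% of all), with quantile normalization repeated (3.33%) or with a filter at percentile 50 (2.63%), 4 with a block for the arrays numbered 1 to 4 and 5 to 7 (3.6%), and 1 to 6 as arrays were left out: 6 when PBS array 1 was left out (2.68%), 4 for PDGF-CC array 3 (2.66%) and 1 for PBS array 3 (2.73%). The 2 lower members (3.41% of all) became 1 with the filter at percentile 50 (4.11%) and 4 with no filter (2.61%). These filters changed which members were tested, 37 and 73 in place of 57. Snora73a (mean 4.82) and Snord92 (mean 4.33) lay under the percentile 50 cut of 5.332 and were not tested there. Deviations of arrays with the same title number correlated at 0.163, 0.107 and 0.084. No such value for differently numbered arrays is given here, so whether title numbers pair the arrays was not settled. With the replicate block, which drops PDGF-CC array 4 as it has no partner, 5 members were higher (3.34%), the Snora median was 0.1382 and the gap between the classes -0.0963. That gap was -5e-04 with means over genes and -0.0938 over tested members, and ran from -0.0963 to 0.011 as arrays were left out. As arrays were left out the Snora median ran from -0.0184 to 0.1382 (without PDGF-CC array 4) and the Snord median from -0.0354 to 0.1002 (without PBS array 1). With quantile normalization repeated the medians were 0.0038 for particle proteins and -0.0038 for hosts. No member belongs to the imprinted clusters, so leaving those out changes nothing. Apart from the set of members tested under each filter, the cause of these changes was not tested.

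Some single differences changed sign, none of them past the adjusted threshold. Array weights gave Snord104 -0.0302, Snord118 -0.0025, Eif5 0.0143, Rpl3 -0.0236, Snhg12 -0.0404 and Wdr43 -0.0107. Centring gave Snord104 -0.0073. Quantile normalization gave Snora31 3e-04, Snord8 0.018, Nop56 0.0048, Nop58 0.0028, Eif5 0.0119, Ncl 0.02, Rpl4 0.0285 and Rps3 0.0332. The description number as a covariate gave Snora21 -0.0081, Snord104 -0.0238, Dkc1 -0.0035, Eif5 0.0255, Ncl 0.0088, Rps3 0.0103, Snhg12 -0.0585 and Wdr43 -0.0029. The block of numbers 1 to 4 against 5 to 7 gave Snora31 0.0559, Snord13 0.0373, Snord8 0.0128, Nop56 0.0055 and Nop58 0.0135. The replicate block gave Snora20 0.1304, Snora31 0.1461, Snord8 0.022, Nop56 0.0694, Nop58 0.0555, Nhp2 -0.0162 and Snhg1 0.0226. The mean of a gene's probe sets gave Rps12 -0.0198 and Tcp1 0.0303. As arrays were left out, Snord104 ran from -0.0898 to 0.1189, Snord118 from -0.0036 to 0.5607, Snord13 from -0.43 to 0.2552, Snord8 from -0.0563 to 0.0288, Snord123 from -0.3135 to 0.055, Snord16a from -0.2237 to 0.0882, Snord35a from -0.3863 to 0.0053, Snora20 from -0.5677 to 0.1476, Snora31 from -0.1606 to 0.1461, Snora73b from -0.131 to 0.0576, Dkc1 from -0.0715 to 0.0922, Nhp2 from -0.0162 to 0.0763, Nop56 from -0.0537 to 0.0694, Nop58 from -0.1406 to 0.0695, Eif5 from -0.1228 to 0.0469, Ncl from -0.1355 to 0.0307, Rps3 from -0.0365 to 0.0196, Snhg1 from -0.1208 to 0.0226, Snhg12 from -0.1031 to 0.1448 and Snhg9 from -0.2081 to 0.04.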

Other observations

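Other short RNAs on the array were read beside the snoRNAs. The 5 small Cajal body RNAs (Scarna genes, relatives of snoRNAs that guide modification of spliceosomal RNAs) had a median difference of 0.0533, with 3 above 0 and 1 of 4 tested higher at an unadjusted p under 0.05. Of the 4 Rnu genes, Rnu11, Rnu12 and Rnu5g encode RNAs of the spliceosome and Rnu3a the box C/D RNA U3. They had a median of 0.1366, with 4 above 0 and none of 3 tested past that p. Of 472 genes with a Mir symbol, 312 lay above 0, with a median of 0.0647, beside 53.9% of all genes. Besides microRNAs they include a few longer host genes (Mir100hg, Mir124-2hg, Mir1a-1hg, Mir9-3hg and Mir99ahg). Of the 181 tested, 20 were higher and 4 lower at that p, beside 2.63% and 3.41% of all tested probe sets. Within arrays numbered 1 to 4 and 5 to 7 the medians of the Mir genes were 0.1023 and 0.0345.

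Exactly equal values in at least 2 arrays were found in 12 of 47 Snord (25.5%) and 11 of 26 Snora (42.3%), against 65.5% of all genes. The array in which most Snord genes had their lowest value was PDGF-CC array 3 (12 genes), and for Snora genes it was PDGF-CC array 4 (9 genes). The largest block of left-out snoRNA probe sets with identical values in all arrays held 16.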
